A study of Mus musculus with 6 samples.

Results

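The core circadian clock of 10 genes was examined in calvaria, the skull vault bones, of newborn mice. The members are Arntl (the gene of BMAL1), Clock, Per1, Per2, Per3, Cry1, Cry2, Nr1d1, Nr1d2 and Dbp. They were chosen by name as textbook components of the clock, with earlier results of these data known. All 10 were found among the 23358 genes counted. The series holds 6 RNA-seq libraries of total RNA from mice aged 2 to 3 days. In 3 libraries the mice are labelled as a conditional knockout of Ezh2 (cKO, Ezh2_cKO-Osx), and in the other 3 as wild type (WT, Ezh2_WT_Osx). Ezh2 encodes the catalytic subunit of Polycomb repressive complex 2, and Osx (now Sp7) encodes a factor that cells need to become osteoblasts. Osx stands in the labels of both groups, but the sources used here do not say whether the WT mice carried a Cre transgene. Before freezing, every bone went through a 20-minute digestion in 2 mg/ml type II collagenase with 0.005% trypsin. Libraries are named by group and label number: WT 14, WT 27, WT 29, cKO 8, cKO 10 and cKO 37, and values per library follow this order. The labels do not say that each came from a separate animal, so p-values reflect only how these libraries spread, which may be technical in part. They also give no hour of collection, so a genotype difference and a difference in time of day between the groups cannot be told apart.

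In the mammalian clock, BMAL1 and CLOCK bind E-box sequences and switch on the Per, Cry, Nr1d and Dbp genes. PER and CRY proteins then return to the nucleus and block BMAL1 and CLOCK, which closes the main loop over about a day. In a second loop the nuclear receptors REV-ERBα and REV-ERBβ, the products of Nr1d1 and Nr1d2, repress Arntl through elements that they share with the ROR activators. In a further loop the activators DBP, TEF and HLF and the repressor NFIL3 compete for D-box elements, of which Per genes carry several. In a tissue with a running clock, Arntl transcripts peak opposite to those of Nr1d1 and Dbp, with the Per genes following. Osteoblasts have such a clock, and Per and Cry genes are known to restrain bone formation in mice.

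To show the elements that the loops use, promoters of members that moved and of members that did not are given from RefSeq (build GRCm38.p6, the same assembly as the files' mm10). Windows ran from 250 bases before to 50 after each annotated start site, and 9 of the 10 members matched, Per2 being the one without an entry. Each line below holds the 250 bases before the start site, 5′ to 3′ on the gene's strand, with the motif matches in capitals. Per3 lies on the minus strand with the shown bases at chr4:151044666-151044915, Nr1d1 on the minus strand at chr11:98775378-98775627, Nr1d2 on the minus strand at chr14:18239107-18239356 and Per1 on the plus strand at chr11:69098699-69098948. For Arntl, 30 bases around the only match are given, on the plus strand at chr7:113207530-113207559.
Per3: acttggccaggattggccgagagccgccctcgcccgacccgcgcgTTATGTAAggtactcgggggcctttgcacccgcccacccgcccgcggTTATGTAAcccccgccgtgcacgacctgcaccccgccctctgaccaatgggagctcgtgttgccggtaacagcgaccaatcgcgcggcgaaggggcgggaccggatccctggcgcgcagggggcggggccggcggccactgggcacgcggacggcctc
Nr1d1: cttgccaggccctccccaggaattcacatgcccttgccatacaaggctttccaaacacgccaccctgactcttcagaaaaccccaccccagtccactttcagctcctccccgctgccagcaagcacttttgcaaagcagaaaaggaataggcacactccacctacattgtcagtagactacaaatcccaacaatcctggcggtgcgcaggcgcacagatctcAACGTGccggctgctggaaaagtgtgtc
Nr1d2: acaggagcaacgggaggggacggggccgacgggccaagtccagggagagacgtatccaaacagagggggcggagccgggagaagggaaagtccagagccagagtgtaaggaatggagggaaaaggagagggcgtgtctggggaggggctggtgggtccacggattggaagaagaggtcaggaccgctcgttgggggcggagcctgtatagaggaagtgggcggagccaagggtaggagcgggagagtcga
Per1: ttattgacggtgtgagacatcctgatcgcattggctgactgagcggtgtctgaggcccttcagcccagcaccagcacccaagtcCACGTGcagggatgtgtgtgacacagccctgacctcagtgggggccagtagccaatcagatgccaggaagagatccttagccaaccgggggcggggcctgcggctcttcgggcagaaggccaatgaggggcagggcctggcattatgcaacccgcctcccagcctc
Arntl: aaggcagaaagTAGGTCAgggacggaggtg

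The motifs searched on both strands were the E-box CACGTG, the variant E'-box CACGTT, the D-box TTATGTAA or TTACGTAA, the REV-ERB and ROR element TAGGTCA and the cyclic AMP element TGACGTCA. CACGTG, TTACGTAA and TGACGTCA read the same on both strands, CACGTT reads AACGTG on the other strand, and no searched motif contains another. Per3 held the D-box TTATGTAA at 2 positions, -205 to -198 and -158 to -151 from its start site. A D-box was in 1.06% of all 32851 RefSeq promoter windows of this length, and Per3 was the only member with one. Per1 held an E-box at -166 to -161 and Cry1 an E-box at -60 to -55, a motif in 7.15% of windows. The E'-box was in 3 members (Cry1, Cry2 and Nr1d1, the last at -28 to -23) and in 4.68% of windows. The second annotated start site of Arntl had TAGGTCA at 31 to 37 bases after it, a motif in 2.61% of windows. No member held TGACGTCA, which 1.79% of windows did. Nr1d2, Dbp and Clock had no match in their windows. Outside the 10 genes, Tef had an E-box in the windows of both its start sites, Ciart had 3 and Nfil3 had the REV-ERB and ROR element at -12 to -6. These are matches of letters in a short window, not measured binding. The 9 members with an entry had 13 windows, whereas the percentages are shares of single windows, so members and windows are not counted alike.

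Gene counts summed to between 60449016 and 95439578 per library, and the members' counts lay between 424 (Dbp in WT 14) and 13436 (Per1 in cKO 37). Every count is even, which makes each counted unit worth 2. Ezh2 itself was at 20.4 to 21.7 CPM (counts scaled to library size, with TMM factors) in WT and 19.2 to 20.6 in cKO (adjusted p = 0.507). The deleted part of the gene is not given, so this does not check the labels. Osteoblast markers were abundant, with Runx2 at 235 to 281 CPM in the 6 libraries. Summed markers were lower in every cKO than in every WT library for osteoblasts (7 markers, 74600 to 103000 against 47600 to 71200 CPM, mostly Col1a1), osteoclasts (5 markers, 1830 to 2450 against 1520 to 1740), macrophages (5 markers, 370 to 462 against 307 to 339) and neural and meningeal cells (5 markers, 11.7 to 13 against 6.84 to 8.68, mostly Tubb3). In each of these 4 lists 1 marker fell by the test (Sp7, Acp5, Csf1r and Tubb3), beside 6.45% of all tested genes. No marker in them was at 0 in all libraries. Of all tested genes, 17.4% were lower in cKO without overlap. The erythroid, neutrophil, B cell, endothelial, skeletal muscle, epidermis and cartilage sums overlapped between the groups. Not all markers of the 4 lists were lower: among those of osteoblasts, Ibsp was at 1070 ± 165 against 1360 ± 101 CPM (adjusted p = 0.0745) and Dmp1 at 873 ± 197 against 978 ± 186 CPM (adjusted p = 0.61). C1qa of macrophages was at 24 ± 1.13 against 24 ± 5.38 CPM. Of the neural and meningeal markers, Snap25 and Nefl had higher means in cKO (0.104 to 0.168 and 0.0741 to 0.115 CPM). Gfap and Ptgds had lower means there, and the groups overlapped in each of these markers except Tubb3. Cartilage markers (4) were lowest in cKO 37, at 758 CPM against 2170 to 8160 in the other 5 libraries. The part of cell composition in the results below was not tested, and in bulk bone fewer cells of a type and less RNA per cell cannot be told apart.

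Expression per length was compared by the RPKM values of the authors, which divide counts by gene length and library total. In WT, the level order began with Nr1d1 (23.7 ± 3.86 RPKM, mean ± SD, n = 3), Per1 (14.9 ± 2.78), Nr1d2 (9.41 ± 1.32) and Cry2 (8.26 ± 0.836). It went on with Clock (5.39 ± 0.0298), Arntl (4.63 ± 0.197), Cry1 (4.61 ± 0.436), Per3 (3.73 ± 1.18), Dbp (3.64 ± 1.34) and Per2 (2.01 ± 0.3). Ranges over the 3 WT libraries overlapped between Nr1d2 and Cry2, though Nr1d2 was above Cry2 within each WT library. They also overlapped between each neighbour from Arntl to Dbp, so the neighbours from Arntl to Dbp were not separated. In cKO, Nr1d1 (19.5 ± 2.4), Per1 (17.2 ± 9.79) and Nr1d2 (13.3 ± 1.62) again came first, with overlapping ranges for Nr1d1 and Per1 and for Per1 and Nr1d2. Per3 (7.42 ± 0.491) came next after Cry2 in cKO. Its range overlapped that of Cry2, though Cry2 was above Per3 within each cKO library. Dbp (6.03 ± 0.953) came after Per3, with a range overlapping that of Clock. The REV-ERB genes and Per1 were thus the most abundant clock transcripts per length in both groups, and Per2 the least.

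Between the groups, Per2, Per3 and Nr1d2 rose in cKO by 1.41 to 2-fold, whereas Arntl, Clock, Cry1 and Cry2 lay within 0.08 of no change on the log2 scale. Dbp was 1.67-fold higher and Nr1d1 lower at 0.824 times its WT level, but neither passed the test. Of the 10 members, 3 rose, none fell and 7 did not pass, where 12.4% of all 16089 tested genes passed (5.96% higher and 6.45% lower in cKO). All 10 members passed the filter on low counts. The median log2 fold change of the members was 0.14, against 0.01 over all tested genes, and 8 of the 10 values were positive. In 4 members, Per2, Per3, Nr1d2 and Dbp, every cKO library was above every WT library. Groups without overlap were found in 34.6% of all tested genes, made up of 17.2% with cKO higher and 17.4% with cKO lower. Before adjustment 5 members had p under 0.05, namely these 4 and Nr1d1, as did 29.1% of all tested genes. Log2 fold changes are cKO over WT from edgeR's quasi-likelihood test, each with its standard error, and p-values are adjusted over all tested genes.

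**Figure D1:**
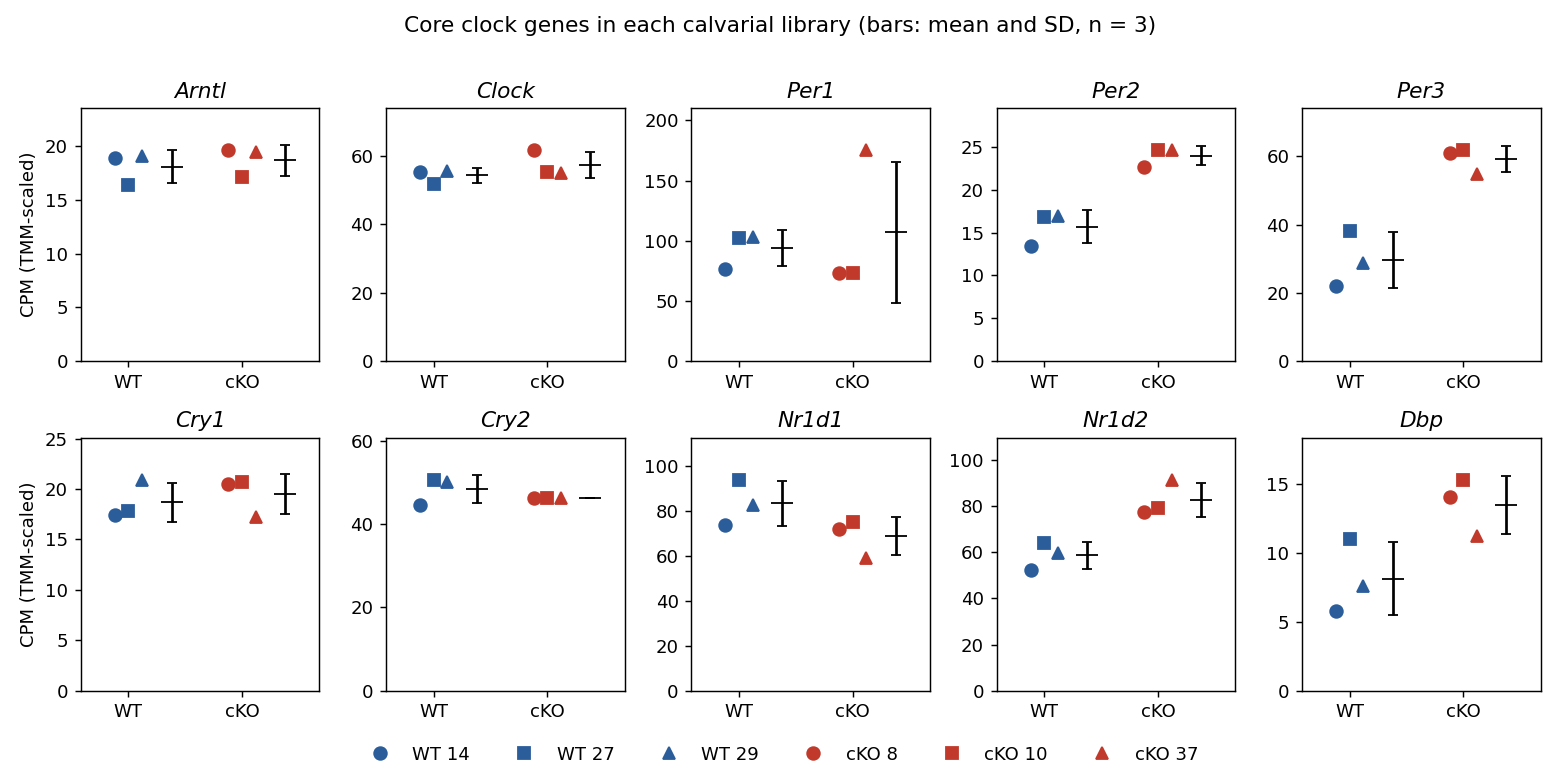
TMM-scaled CPM of the 10 clock genes in each library (blue WT, red cKO, 1 symbol per library), with the group mean and SD (black, n = 3) beside the points, each vertical axis starting at 0. The groups are apart in Per2, Per3 and Nr1d2, nearly touch in Dbp (11 against 11.2 CPM), and in Per1 cKO 37 stands alone at 175 CPM.

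Arntl (chr7:113207465-113314126) encodes the partner of CLOCK that the loop cannot run without. Its level was 18.9, 16.4 and 19.1 CPM in WT and 19.6, 17.1 and 19.5 CPM in cKO. The groups overlapped, and within each of them 1 library (WT 27, cKO 10) was below the other 2. The difference was 0.04 ± 0.09 on the log2 scale (95% confidence interval -0.15 to 0.23, adjusted p = 0.775). Clock (chr5:76212177-76304548), the partner in the activator, was at 55.4, 51.7 and 55.6 CPM in WT and 61.6, 55.3 and 55 CPM in cKO. Of the cKO libraries only cKO 8 was outside the WT range, above it, with a difference of 0.08 ± 0.07 (interval -0.07 to 0.22, adjusted p = 0.468). Neither interval of this activator pair reached beyond 0.23 on the log2 scale. Of the paralogs, Npas2, which can stand in for CLOCK, was at 17.8 ± 3.66 against 15 ± 2.1 CPM (adjusted p = 0.35). Arntl2, a second BMAL, rose from 5.96 ± 1.14 to 8.46 ± 1.05 CPM (a log2 difference of 0.51 ± 0.15, adjusted p = 0.0464). That call held without WT 14 and was lost on omission of any other library (0.0577 to 0.181).

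Per3 (chr4:151003655-151044622), a PER protein that is not needed for rhythm itself, had the largest difference among the members. Its level was 22, 38.2 and 28.6 CPM in WT and 60.9, 61.7 and 54.8 CPM in cKO. All cKO libraries were above all WT libraries, and the WT libraries were spread more widely (SD 8.13 against 3.79 CPM). The log2 fold change was 1.0 ± 0.20 (2-fold, interval 0.5 to 1.5, adjusted p = 0.0339). The value stayed between 0.82 and 1.22 without any single library, but omitting WT 29 or any one cKO library ended the call (adjusted p = 0.0862 to 0.119), as did testing without the low-count filter (0.0631). Per2 (chr1:91415982-91459328), the PER protein on which rhythm depends most, was at 13.5, 16.8 and 16.9 CPM in WT and 22.7, 24.6 and 24.6 CPM in cKO. The groups were apart by more than either group's own range. Per2 rose by 0.61 ± 0.09 on the log2 scale (1.52-fold, interval 0.41 to 0.81, adjusted p = 0.00381) and passed without any single library (adjusted p = 0.0086 to 0.0175).

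Per1 (chr11:69098956-69109957), the PER gene most readily induced by acute signals, did not pass the test. It was at 76.5, 102 and 103 CPM in WT and at 73.2, 73.4 and 175 CPM in cKO. A single cKO library was thus above all others while the other 2 were below all WT libraries. The difference was 0.19 ± 0.44 (interval -1.01 to 1.39, adjusted p = 0.826), and without cKO 37 it turned to -0.36 (adjusted p = 0.16). The RPKM ratio of Per3 to Per1 was 0.227, 0.294 and 0.219 in WT and 0.657, 0.664 and 0.248 in the cKO libraries. The cKO 37 library thus had a WT-like ratio, with both of its PER transcripts high.

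The cryptochromes, the main repressors of BMAL1 and CLOCK, showed the smallest differences beside the activators. Cry1 (chr10:85131700-85185054) was at 17.4, 17.8 and 20.9 CPM in WT and 20.5, 20.7 and 17.2 CPM in cKO, with overlapping groups (0.06 ± 0.10, interval -0.15 to 0.27, adjusted p = 0.741). Cry2 (chr2:92403647-92434069) was at 44.6, 50.6 and 50.1 CPM in WT and 46.3, 46.2 and 46.2 CPM in cKO (-0.07 ± 0.06, interval -0.21 to 0.08, adjusted p = 0.539). The cKO values of Cry2 sat inside the WT range. D930015M05Rik lies on the other strand within Cry2 and shares 295 exon bases with it in GENCODE M21. Whether the counting used strand is not given, so reads of that stretch cannot be told apart, though the transcript was at only 1.97 to 2.85 CPM.

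The REV-ERB genes differed in sign: Nr1d2 rose, while Nr1d1 had lower values that did not pass. Nr1d2 (chr14:18204056-18239106), encoding REV-ERBβ, was at 52.1, 63.9 and 59.7 CPM in WT and at 77.4, 79.3 and 91.3 CPM in cKO. Every cKO library was above every WT library, and Nr1d2 rose by 0.50 ± 0.09 (1.41-fold, interval 0.30 to 0.69, adjusted p = 0.00745), a call kept without any single library (adjusted p = 0.00952 to 0.0351). Nr1d1 (chr11:98767935-98775242), encoding REV-ERBα, was at 73.6, 93.7 and 82.6 CPM in WT and 71.8, 75 and 59 CPM in cKO. Only cKO 10 reached into the WT range. The Nr1d1 difference of -0.28 ± 0.11 (interval -0.53 to -0.03) did not pass (adjusted p = 0.132). Within a library, where scaling cancels, the RPKM ratio of Nr1d2 to Nr1d1 was 0.401, 0.386 and 0.409 in WT and 0.61, 0.599 and 0.875 in cKO. The WT ratios lay close together (0.399 ± 0.0117, mean ± SD, n = 3), and each cKO ratio was above them. The ratios were chosen after the values were seen and were not tested. Thra, which encodes a thyroid hormone receptor, overlaps the end of Nr1d1 on the other strand and shares 263 exon bases with it in GENCODE M21, although their intervals in the file do not overlap. Thra was at 108 ± 6.09 against 110 ± 9.96 CPM (adjusted p = 0.818).

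Dbp (chr7:45705247-45710203), an activator at D-boxes and a direct BMAL1 and CLOCK target, was higher in cKO without passing the test. It was at 5.8, 11 and 7.61 CPM in WT and at 14.1, 15.3 and 11.2 CPM in cKO. WT 27 and cKO 37 were nearly equal, and the groups did not overlap by that small margin. The difference was 0.74 ± 0.24 (interval 0.16 to 1.31, adjusted p = 0.0978). Dbp passed without WT 27 (1.01, adjusted p = 0.0102) and with DESeq2 (adjusted p = 0.00185). Sphk2, a sphingosine kinase gene, runs into the end of Dbp from the other strand and shares 539 exon bases with it in GENCODE M21. Their counted intervals overlap by 741 bases, and Sphk2 was above Dbp in CPM in every library. As the use of strand in counting is not given, reads of that stretch cannot be told apart. Sphk2 fell, from 24.9 ± 1.22 to 20.7 ± 1.02 CPM (adjusted p = 0.0316).

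The paralogs of Dbp rose, and the repressor of the same elements fell. Tef, a paralog of Dbp, was at 73.4, 98.6 and 86.8 CPM in WT and at 118, 123 and 109 CPM in cKO. It rose by 0.43 ± 0.10 on the log2 scale (adjusted p = 0.0249). Hlf, the remaining PAR bZIP activator, was at 8.56, 12.5 and 9.09 CPM in WT and 15.3, 15.9 and 14.4 CPM in cKO. It rose by 0.60 ± 0.13 (adjusted p = 0.0192). Both showed no overlap, and in both, as in Per3, Nr1d2 and Dbp, WT 14 was the lowest and WT 27 the highest WT library. Nfil3, which represses at D-boxes, was at 19.6, 14 and 20.6 CPM in WT and 10, 9.86 and 10.5 CPM in cKO. It fell by 0.83 ± 0.13 (0.561 times the WT level, adjusted p = 0.00594) and passed under all 14 alternatives tried. Tef was lost without WT 29, cKO 8 or cKO 10 and Hlf without those or WT 14 (adjusted p = 0.054 to 0.0922). The RPKM ratio of Dbp to Nfil3 was 0.351, 0.93 and 0.44 in WT and 1.66, 1.84 and 1.27 in cKO. All 3 listed genes of this group thus passed, 2 higher and 1 lower, where 5.96% of all tested genes rose and 6.45% fell. The 3 calls became 2 without WT 14, and 1 without WT 29, cKO 8 or cKO 10. Against a fold change of 1.2 there was also 1.

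**Figure D2:**
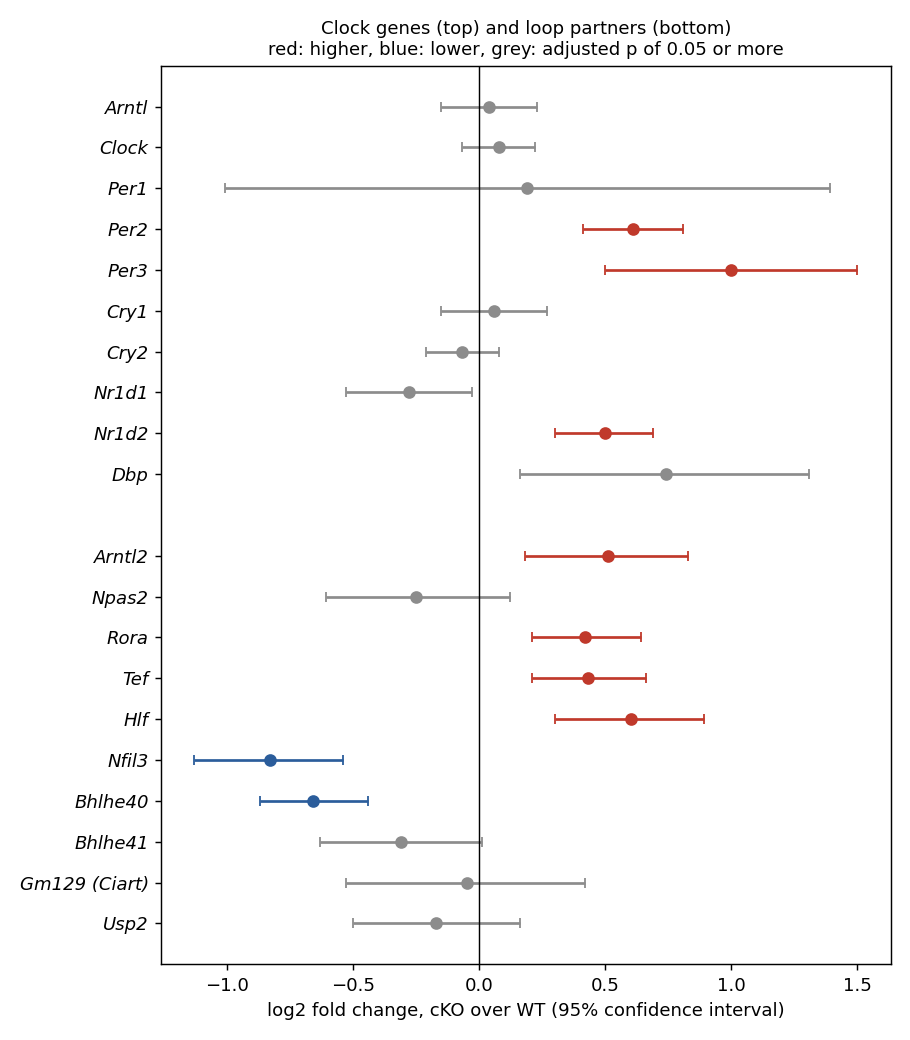
Log2 fold change of cKO over WT with its 95% confidence interval for the 10 clock genes (top) and 10 partners of the loops (bottom), coloured red where higher and blue where lower at an adjusted p under 0.05 and grey otherwise. Per2, Per3, Nr1d2, Arntl2, Rora, Tef and Hlf are to the right of 0, Nfil3 and Bhlhe40 to the left, and the interval of Per1 runs from -1.01 to 1.39.

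Of the ROR genes, which activate where REV-ERBs repress, Rora rose from 12.5 ± 1.26 to 16.8 ± 1.32 CPM (log2 difference 0.42 ± 0.10, adjusted p = 0.0192). Its call was lost without WT 29 or cKO 8 (0.078 and 0.0731). Rorb did not pass (adjusted p = 0.725). Of 4 further E-box repressor genes, Bhlhe40 (DEC1) fell and 3 did not pass, where 5.96% of all tested genes rose and 6.45% fell. Bhlhe40 was at 227, 206 and 233 CPM in WT and at 120, 147 and 157 CPM in cKO, a fall of 0.66 ± 0.10 on the log2 scale (adjusted p = 0.0044) that passed under all 14 alternatives. Its paralog Bhlhe41 (DEC2) was at 10.4 ± 1.92 against 8.33 ± 1.02 CPM (adjusted p = 0.182), and Ciart, listed as Gm129, at 2.94 ± 0.591 against 2.85 ± 0.729 CPM (adjusted p = 0.894).

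Enzymes that set the lifetime of PER and CRY were read next. Of 19 tested kinase, phosphatase and ubiquitin ligase genes, 2 rose and 17 did not pass, with a median of -0.08 against 0.01 for all genes. That count is near the background, in which 12.4% of all tested genes passed. It was 0 without cKO 8, 4 without cKO 37 and 1 without any other single library. Among the genes that rose, Prkaa1, a catalytic subunit of AMPK, which marks CRY for degradation, rose from 27 ± 1.97 to 34.2 ± 0.866 CPM (log2 difference 0.34 ± 0.07, adjusted p = 0.0113). That call was lost without cKO 8 (adjusted p = 0.0594). The casein kinases that phosphorylate PER did not pass, with Csnk1d at -0.04 ± 0.06 and Csnk1e at -0.07 ± 0.06 (adjusted p = 0.654 and 0.519). Of 15 cofactors of the clock, 1 rose and 14 did not pass, where 5.96% of all tested genes rose. The one that rose was Kdm5a, a histone demethylase that acts with BMAL1 and CLOCK, at 92.6 ± 3.82 against 111 ± 2.62 CPM (0.26 ± 0.06, adjusted p = 0.0172), a call lost without WT 27, WT 29 or cKO 8 (0.0587 to 0.084).

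Of 20 clock-controlled genes further downstream, 1 rose, 4 fell and 15 did not pass (median -0.03), where 5.96% of all tested genes rose and 6.45% fell. The 5 calls became 2 without WT 27, WT 29 or cKO 8, 3 without WT 14, 9 with DESeq2 and 0 against a fold change of 1.2. Cirbp, a cold-inducible RNA-binding protein, rose from 63 ± 1.95 to 87.4 ± 7.04 CPM (log2 difference 0.47 ± 0.07, adjusted p = 0.0033), and Hsf1, the heat shock factor, fell from 36.1 ± 0.575 to 29.2 ± 0.591 CPM (adjusted p = 0.00805). Por, the P450 reductase, fell by 0.25 ± 0.06 log2 units (adjusted p = 0.0237), lost without WT 27, WT 29 or cKO 8 (0.0642 to 0.0795). Fkbp5, a cochaperone of the glucocorticoid receptor, fell by 0.27 ± 0.07 log2 units (adjusted p = 0.0321) and held only without cKO 10 among the single omissions (0.0545 to 0.126 in the others). The remaining fall was Cdkn1a, the p21 gene (adjusted p = 0.0435), which held only without cKO 37 (0.0737 to 0.172 in the others) and was lost with upper-quartile scaling (0.0652). Usp2, a deubiquitinase with strong rhythms in many tissues, was at 10.8 ± 1.81 against 9.6 ± 1.56 CPM (adjusted p = 0.494). Over all 94 listed genes, each counted once, 8 rose and 22 fell, and 15 of the falls were in the list described next.

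Per1 responds within minutes to CREB and related signals, so genes of the same early response were read beside it. The list also held regulators of that response, Creb1, Crtc1, Crtc2 and Crtc3, none of which passed. Of its 21 genes, 15 fell, none rose and 6 did not pass (median -0.73), where 6.45% of all tested genes fell. Against a fold change of 1.2, 8 fell. In log2 units Atf3 fell by 1.49 ± 0.12 and Ier2 by 0.72 ± 0.06 (adjusted p = 0.000764 for both), and Csrnp1 fell by 1.30 ± 0.11 and Junb by 0.74 ± 0.08 (0.00112 for both). On omission of any one library 12 to 15 of them fell. Atf3 was at 38.2, 30.4 and 40.9 CPM in WT and 14.2, 13.2 and 11.6 CPM in cKO, so cKO 37 was the lowest library for Atf3 and the highest for Per1. Per1 in cKO 8 and cKO 10 was lower than in every WT library. In all 15 genes that fell, each cKO library was below each WT library, as in 17.4% of all tested genes. Those 15 were picked by the test on the same libraries, so their lack of overlap is no further result. The part of this early response in the clock gene differences was not tested.

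In cKO 37, several glucocorticoid-induced genes were above the other cKO libraries, as was Per1, which glucocorticoids also induce. Tsc22d3 (GILZ) was at 44.4, 58.3 and 52 CPM in WT, 46.3 and 51.5 CPM in cKO 8 and cKO 10, and 121 CPM in cKO 37. Klf9 was at 32.5 to 34.5 CPM in WT, 26.1 and 25.4 CPM in cKO 8 and cKO 10, and 53 CPM in cKO 37. Ddit4 was at 91.8 CPM in cKO 37 and 35.9 to 51.3 CPM in the other 5 libraries. In 5 of the 12 listed genes (Tsc22d3, Klf9, Errfi1, Cebpd and Ddit4) cKO 37 had at least 1.5 times the CPM of both other cKO libraries, as in 2.15% of all tested genes. Cebpd at 33.5 CPM in cKO 37 was still below every WT library (35.4 to 41.4 CPM), while the other 4 were above all 5 other libraries. Fkbp5 and Sgk1, 2 other targets, showed no such step (24.5 and 48.5 CPM in cKO 37). Over the list 3 of 12 genes fell (Dusp1, Sgk1 and Fkbp5), none rose and 9 did not pass, beside 6.45% lower over all tested genes. Without cKO 37, 5 fell, among them Klf9, Ddit4 and Cebpd (adjusted p = 0.00799, 0.012 and 0.00119). Among the members, Per1 was the only one with a step of 1.5 times in cKO 37. Per2, Per3 and Dbp were not raised there above cKO 8 and cKO 10 in that way. The part of the glucocorticoid response in the Per1 value was not tested, nor was that of the low cartilage marker sum of cKO 37 (758 CPM).

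**Figure D3:**
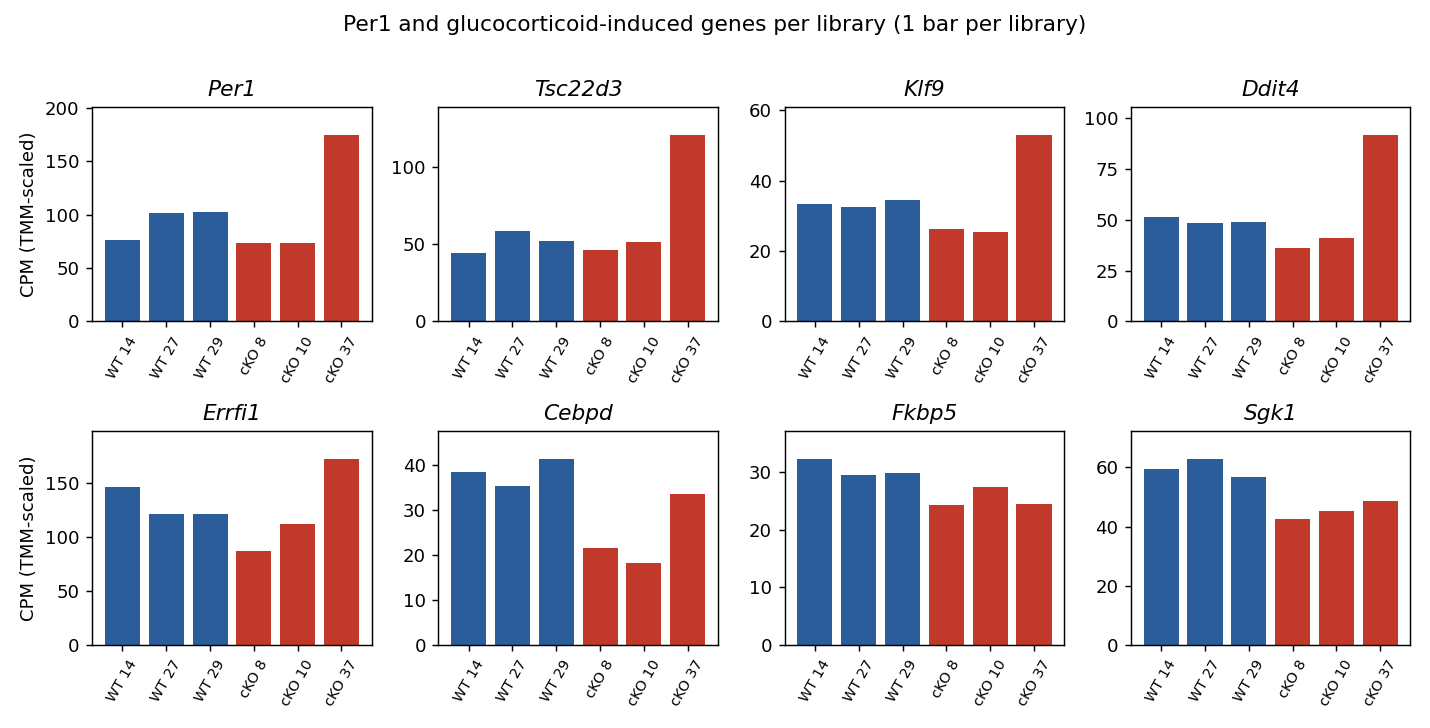
TMM-scaled CPM of Per1 and 7 glucocorticoid-induced genes, 1 bar per library (blue WT, red cKO), each vertical axis starting at 0. In cKO 37, Per1 (175), Tsc22d3 (121), Klf9 (53) and Ddit4 (91.8) are above the other 5 libraries, and Fkbp5 (24.5) and Sgk1 (48.5) are not.

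Phase agreement was read in each library by setting every gene against its own mean over the 6 libraries, on the log2 CPM scale. The output arm was Per1, Per2, Per3, Nr1d1, Nr1d2, Dbp, Tef, Hlf, Ciart and Bhlhe41, and the Bmal1 arm was Arntl, Clock and Npas2. In WT 14, 0 of 10 output genes and 2 of 3 Bmal1 arm genes were above their means, with mean deviations of -0.44 and 0.15. In WT 27, 6 of 10 and 0 of 3 were above (0.05 and -0.14), and in WT 29, 4 of 10 and 2 of 3 (-0.12 and 0.04). Each cKO library had 7 of 10 output genes above their means, with 3, 0 and 1 of the 3 Bmal1 arm genes in cKO. Per2, Per3, Nr1d2, Dbp, Tef and Hlf were above in all 3 cKO libraries. Because each gene's mean takes in both groups, these output counts largely restate the group differences given above. The mean deviations of the output and Bmal1 arms were 0.16 and 0.11 in cKO 8, 0.19 and -0.08 in cKO 10, and 0.16 and -0.08 in cKO 37. The arms therefore lay on opposite sides of their means in 5 of 6 libraries, and in cKO 8 both were above. In cKO 37 this rested on Npas2 (-0.31, with Clock at -0.02), as Arntl itself was above its mean (0.09). In WT 14 the Bmal1 arm was likewise mostly Npas2 (0.43, against 0.04 for Arntl and -0.01 for Clock). This count was not set against other genes and was not tested.

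The phase difference, the mean deviation of the output arm minus that of the Bmal1 arm, was -0.60, 0.19 and -0.16 in WT and 0.05, 0.27 and 0.24 in cKO. The WT libraries thus differed more among themselves (SD 0.40, mean -0.19) than the cKO libraries (SD 0.12, mean 0.19), and WT 27 was above cKO 8. As a score over chosen genes it was given no test. With Arntl set against Nr1d1 and Dbp only, it was -0.47, 0.37 and -0.20 in WT and 0.10, 0.39 and -0.20 in cKO, with overlapping groups.

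WT 14 was the lowest WT library in all 10 output genes, which held in 33.9% of all tested genes. The order WT 14, WT 29, WT 27 from low to high held in 7 of the 10 (Per3, Nr1d1, Nr1d2, Dbp, Tef, Hlf and Bhlhe41), against 18.2% of all tested genes. Nr1d1 followed this order among the WT libraries together with Nr1d2, Dbp and Per3, but not between the groups. Npas2 was highest in WT 14 (21.8 CPM against 13 to 17.2 in the other 5 libraries), whereas Arntl in WT 14 (18.9 CPM) was close to WT 29 (19.1 CPM). In cKO 37 the output genes disagreed, with Per1 at 0.87, Nr1d1 at -0.35 and Ciart at -0.48. Arntl itself stayed between -0.16 and 0.09 in all 6 libraries.

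**Figure D4:**
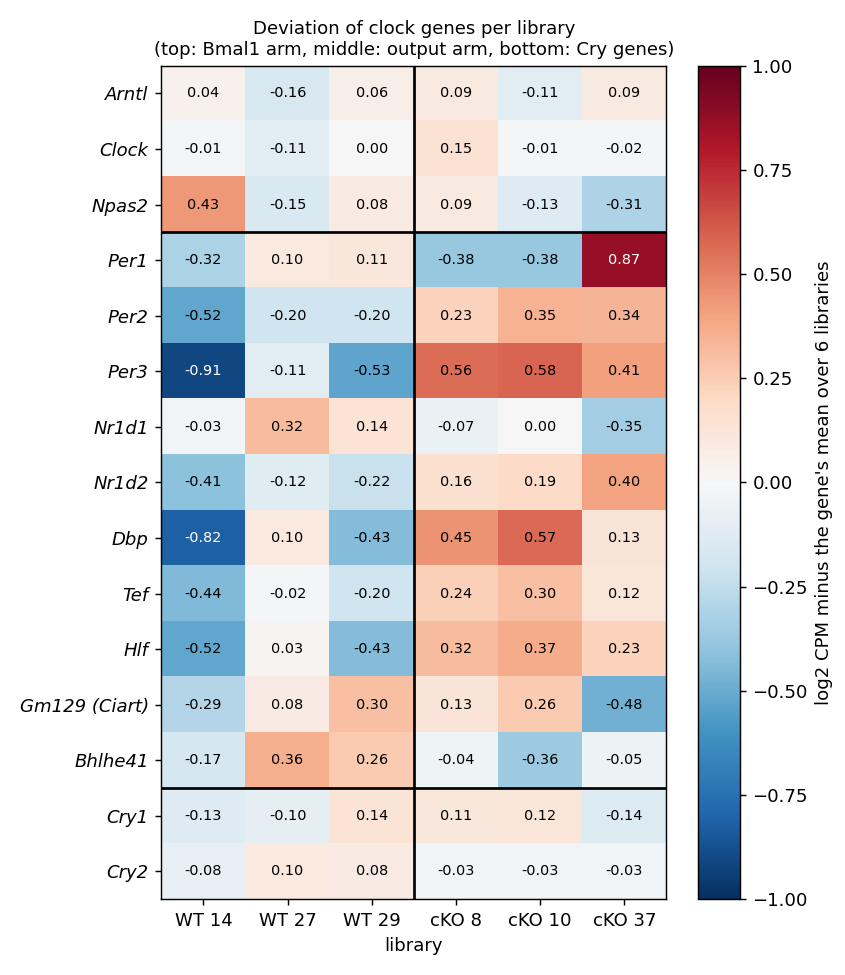
Deviation of log2 CPM from the gene's own mean over the 6 libraries (columns) for the Bmal1 arm (top), the output arm (middle) and the Cry genes (bottom), on a scale from blue (below) to red (above). Per2, Per3, Nr1d2, Dbp, Tef and Hlf are above 0 in all 3 cKO libraries, WT 14 is below 0 in all 10 output genes, and Arntl stays between -0.16 and 0.09.

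Ratios to Arntl within a library do not depend on scaling between libraries. The RPKM ratio of Per3 to Arntl was 0.57, 1.14 and 0.732 in WT and 1.52, 1.77 and 1.37 in cKO. That of Per2 to Arntl was 0.355, 0.51 and 0.44 in WT and 0.577, 0.72 and 0.628 in cKO. The groups did not overlap in either ratio. The ratio of Dbp to Arntl was 0.532, 1.16 and 0.691 in WT and 1.25, 1.56 and 0.998 in cKO, and here cKO 37 was below WT 27. The ratio of Nr1d1 to Rora, genes of opposite action on the same element, was 3.48, 4.43 and 4.68 in WT and 2.67, 3.05 and 2.05 in cKO, again without overlap. These ratios were also chosen after the values were seen, and with 3 libraries per group an exact permutation test could not give a two-sided p below 0.1, so none was run.

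The spread within groups differed strongly among the members. The SD of log2 CPM within groups was 0.54 for Per1, 0.37 for Dbp and 0.29 for Per3, against 0.07 for Cry2, 0.08 for Clock and 0.12 for Arntl. The median over all tested genes was 0.12, and 7 of the 10 members were above it. Per3 and Dbp were more spread in WT (0.40 and 0.46) than in cKO (0.09 and 0.23), and Per1 more in cKO (0.72 against 0.25). Per2 and Nr1d2 (0.14 each) were close to Cry1 (0.15).

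The genes most like 3 of the members were found by Pearson's r of log2 CPM over the 6 libraries among the 9936 other genes whose log2 CPM averaged 3 or more. For Arntl these were Lysmd3 (r = 0.9878), Tsc22d2 (0.9875), Slc35e2 (0.9839) and Qpct (0.9828). For Nr1d1 they were C030046I01Rik (0.9897), Atp1b2 (0.9886), Fgd1 (0.9883) and Epn1 (0.9869), and for Per1 Arpc1a (0.9933), Txndc9 (0.991), Naprt1 (0.9799) and Sft2d1 (0.979). No other clock member was among these. With 6 points that share library and depth, such values describe the libraries only. Arpc1a, the closest to Per1, spanned just 59.5 to 65 CPM, with cKO 37 the highest.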

How the data were processed

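RNA-seq libraries of calvaria, 3 WT and 3 cKO, were taken from 1 table of the series. Per the submitters' processing notes, reads were made with bcl2fastq, aligned to mm10 with TopHat2 2.0.6 and counted with HTSeq. No source used here gives the annotation, the use of strand or the aligner settings. The deposited counts per gene, every one of them even, were tested as deposited. The RPKM values deposited by the authors served only to compare levels between genes and for ratios within a library.

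In R 4.3.3, genes were kept by filterByExpr (minimum count 10; 16089 genes), scaled by TMM (factors 0.9519 to 1.072) and tested with the robust quasi-likelihood test of edgeR 4.0.16, with Benjamini-Hochberg adjustment over these genes and a threshold of 0.05. The biological coefficient of variation was 11.5%. Log2 CPM used a prior count of 2. Alternatives were other scalings and filters, DESeq2 1.42.0, limma voom 3.58.1, glmTreat against a fold change of 1.2, a threshold of 0.1, halved counts and omission of each library. The steps were tested on simulated data. Ciart, Kmt2a and Cipc were matched through older RefSeq names.

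The members, the 9 gene lists and the arms were chosen with earlier results of these data known, so they are not independent of them. Named were all 10 members, 9 fixed loop partners (Npas2, Rora, Nfil3, Tef, Hlf, Bhlhe40, Bhlhe41, Ciart and Usp2), up to 4 members of each list past the threshold with the smallest p, and the 4 genes most like Arntl, Nr1d1 and Per1. Some genes that this rule would name are not reported here. Other genes and the ratios were named after their values were seen.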

Additional observations from a re-analysis of the deposited data

How the results depend on the processing

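No call of a member was past the test against a fold change of 1.2, with 0 members, 10 listed genes and 112 of all genes remaining. Without any single library, 2 to 4 members, 18 to 35 listed genes and 586 to 1985 of all genes passed, where 3, 30 and 1997 passed with all 6, and the counts over 1.5 times lower were 1127, 1169, 783 and 586 of all genes without WT 14, WT 27, WT 29 and cKO 8 and 18 and 19 listed genes without WT 29 and cKO 8. At an adjusted p threshold of 0.1, 3277 genes passed. With halved counts, 2056 of all genes, 30 listed genes and 3 members passed. With upper-quartile scaling 60.9% of all calls were higher in cKO, against 48%, with 3 members called. Over the omissions, Arntl ran from -0.03 (without WT 27) to 0.10 and Per1 from -0.36 (without cKO 37) to 0.40 on the log2 scale, neither past the threshold. No other member changed sign under the 14 alternatives, although Cry1 reached 0.00 without cKO 10. Nr1d2 and Per2 passed under 13 of them and Per3 under 8. With Arntl set against Nr1d1 and Dbp only, the phase difference moved from 0.24 to -0.20 in cKO 37. There Nr1d1 was at -0.35, Dbp at 0.13 and Arntl at 0.09. It also moved from 0.27 to 0.39 in cKO 10 and from 0.19 to 0.37 in WT 27. No paired analysis was possible because the groups share no label number. The lowest member count was 424, and 3 libraries per group set the width of the intervals.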

Other observations

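Crtc1, a coactivator of CREB, was at 151 CPM in WT 27 and at 40.3 to 45.7 CPM in the other 5 libraries, with counts of 10560 against 2720 to 4206. Its relatives Crtc2 and Crtc3 showed no such value in that library (45.2 and 47.7 CPM). Crtc1 was singled out after its values were seen.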
